A study of Mus musculus with 7 samples.

Results

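The 86 genes of the cytosolic ribosomal proteins were compared between livers of PTH-treated and PBS-treated mice, 52 of them of the large subunit (Rpl) and 34 of the small subunit (Rps), among 22564 genes measured. They were chosen by symbol alone, as Rpl or Rps with a number and an optional paralog letter, together with Rpsa and the stalk genes Rplp0, Rplp1 and Rplp2. Of these, 83 reached 0.5 FPKM (fragments scaled to transcript length and library size, a level per length) in at least 3 libraries and were tested, 49 Rpl and all 34 Rps. The other 3, Rpl3l, Rpl10l and Rpl39l, were listed at 0 in every library. No line of the table carried the symbol Rps4l, so that paralog was not analysed here. Rps3a2 and Rps3a3, which the symbol rule takes in, are processed pseudogenes in GENCODE M21, and their values are uncertain because reads of Rps3a1 can be placed on them. The entry named Rpl24 is uncertain as well, since the position of its gene identifier does not hold the RefSeq start of Rpl24.

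The libraries were made from total RNA of C57bl/6 mouse liver, 4 from the PTH group (library titles C+P) and 3 from the PBS group (library titles C). PTH is parathyroid hormone, and PBS is phosphate-buffered saline. The letter C is not explained in the sources used here, nor are the dose, the duration, the age and sex of the mice, or whether each library came from its own animal, so the p-values measure only the spread between these libraries. The series concerns signalling through the PTH receptor in hepatic fibrosis, and the comparison asks which liver transcripts differ with PTH.

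A ribosome is built from a large subunit, which holds the peptidyl transferase centre and the tunnel through which the new protein leaves, and a small subunit, which binds mRNA and reads its codons. Each subunit holds 1 copy of most of its proteins, and the stalk proteins Rplp1 and Rplp2 are present in more copies. Ribosomal protein mRNAs begin with a short run of pyrimidines, the terminal oligopyrimidine (TOP) tract, through which mTOR signalling controls how well they are translated, and in liver they are among the abundant transcripts of the cell.

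Together the member genes held a larger share of the mRNA in PTH livers. Their summed FPKM made up 3.86, 4.97, 4.09 and 3.97% of the library total in PTH livers, against 2.04, 1.28 and 1.91% in PBS livers (4.22 ± 0.505% in PTH, SD, n = 4, and 1.74 ± 0.405% in PBS, SD, n = 3). The groups did not overlap, with the second PTH library highest and the second PBS library lowest of all 7. The large subunit took 2.20, 2.87, 2.33 and 2.34% in PTH livers, against 1.23, 0.811 and 1.14% in PBS livers. The small subunit took 1.66, 2.10, 1.76 and 1.63% in PTH livers, against 0.807, 0.470 and 0.768% in PBS livers. Both subunits were thus higher in every PTH library than in any PBS library. In the deposited count columns, which do not weight short transcripts up, the member share was 1.25 to 1.52% in PTH livers, against 0.424 to 0.665% in PBS livers. In bulk tissue, more of a transcript per cell and more cells that carry it cannot be told apart.

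**Figure D1:**
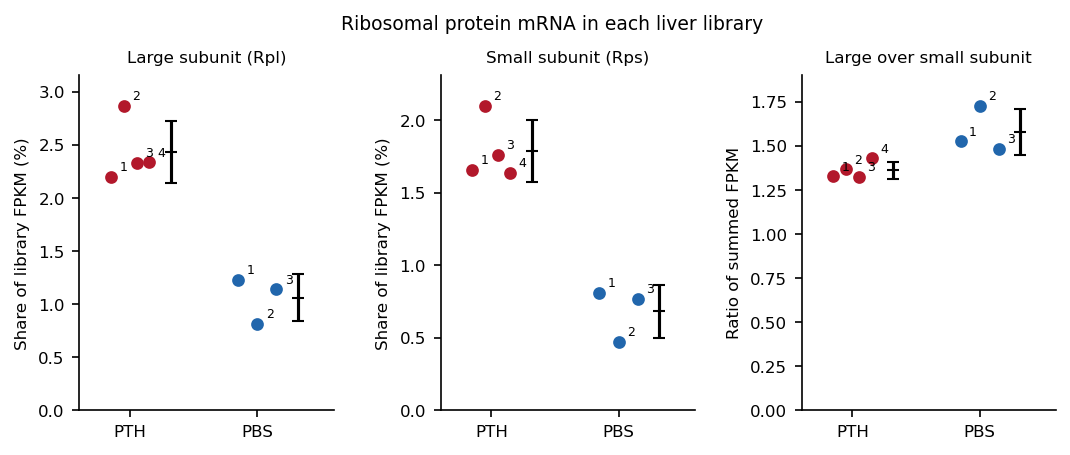
Share of all FPKM in a library taken by large-subunit genes (left, %) and small-subunit genes (middle, %), and the ratio of their summed FPKM (right), with 1 point per library labelled by its number and bars for the mean ± SD. Shares in the 4 PTH libraries (2.20 to 2.87% and 1.63 to 2.10%) lay above those in the 3 PBS libraries (0.811 to 1.23% and 0.470 to 0.807%), and the large-to-small ratio in PTH (1.32 to 1.43) lay below that in PBS (1.48 to 1.73).

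Gene by gene, 42 of 49 Rpl genes and 32 of 34 Rps genes were higher in PTH livers at an adjusted p under 0.05 (limma over all 11861 tested genes), and 0 were lower. The background was high: 22.8% of all tested genes were higher and 2.37% were lower. The median log2 change, on the log2(FPKM + 0.5) scale, was 1.37 for Rpl and 1.48 for Rps, against 0.55 for all tested genes, so the members stood 0.82 and 0.93 above a transcriptome that itself sat higher in the deposited PTH values. With each library scaled to the same median over the tested genes, which brought the median of all genes to 0.01, the Rpl median was 0.75 and the Rps median 0.85. On that scale 10 Rpl and 12 Rps genes were higher and 0 were lower, against 2.96% of all tested genes higher and 4.75% lower. In the deposited count columns 42 Rpl and 31 Rps genes were higher and 0 were lower, against 31.3% of all tested genes higher and 2.61% lower. All 83 log2 changes were positive as deposited, and 45 Rpl and 33 Rps changes were after median scaling, the exceptions being Rpl3, Rpl22l1, Rpl24, Rpl38 and Rps3a2. The PTH and PBS libraries did not overlap, with PTH higher, for 42 Rpl and 29 Rps genes, against 32.9% of all tested genes. After median scaling they did not overlap for 33 Rpl and 24 Rps genes, against 11.6% of all tested genes.

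These counts depended on single libraries and on the scale. Without the second PTH library, 27 Rpl and 19 Rps genes were higher, while the share of all tested genes that was higher also fell, to 8.18%. Without the second PBS library the counts were 28 and 21, against 10.8% of all tested genes. They were 31 and 22 without the third PBS library, against 10.5%, and 40 and 33 without the fourth PTH library, against 20.1%. Without each of the others they were 37 to 42 and 25 to 31, against 13.3 to 22.8%. With the dependence on transcript length and GC content removed from each library, 22 of 49 Rpl and 14 of 32 Rps genes were higher, against 524 of all genes (4.5%). After median scaling, leaving out any 1 library gave 1 to 13 Rpl and 3 to 12 Rps genes, against 0.464 to 4.95% of all tested genes, with the lowest counts and share (1, 3 and 0.464%) without the second PTH library. Estimated reads were 1621719 to 3281509 in PTH libraries, against 1200679 to 2556680 in PBS libraries, and the second PTH library was the deepest.

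**Figure D2:**
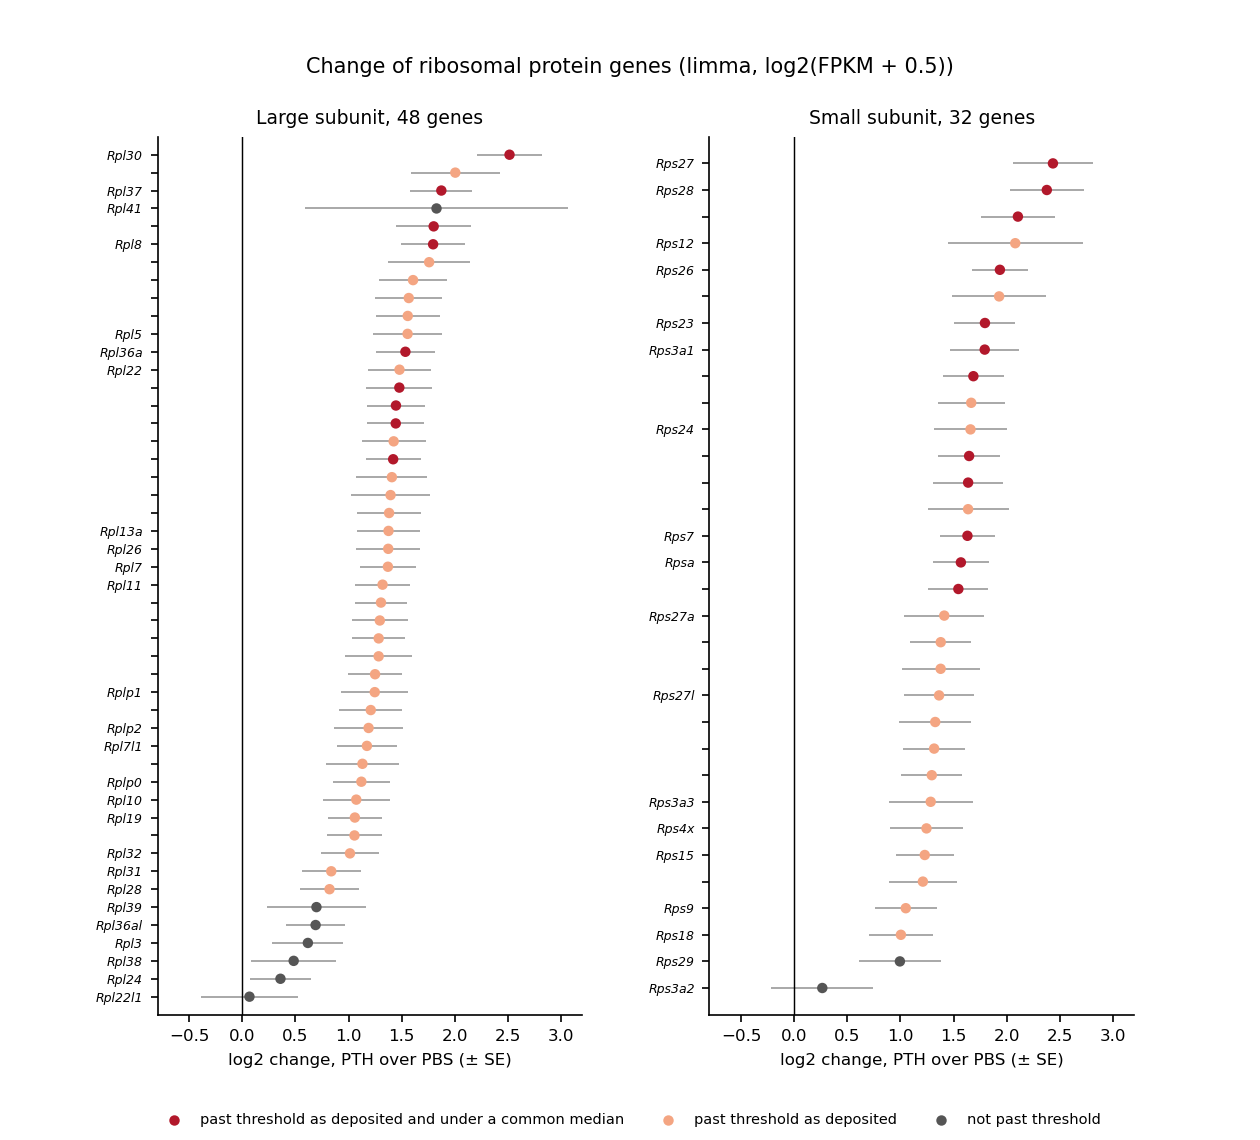
The log2 change of 80 of the 83 tested members, PTH over PBS, with its standard error (limma on log2(FPKM + 0.5)), for 48 large-subunit genes (left) and 32 small-subunit genes (right), coloured by whether the gene passed the threshold and named where the text describes it. Every estimate drawn lies above 0, from 0.07 (Rpl22l1) to 2.52 (Rpl30) and from 0.26 (Rps3a2) to 2.44 (Rps27), whereas Rpl3, Rpl22l1, Rpl24, Rpl38 and Rps3a2 turn negative after median scaling.

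The ratio of large- to small-subunit mRNA was lower in every PTH library than in any PBS library. The Rpl median change minus the Rps median change was -0.11 log2 units, a difference that was not tested. It was -0.30 without the third PBS library, -0.25 without genes on shared loci and -0.21 with the length and GC dependence removed. In other fits it was smaller, at -0.08 without the second PBS library and -0.10 with quantile scaling. The log2 changes of single genes spread more widely than this difference, with an SD of 0.44 for Rpl and 0.43 for Rps. The ratio of summed Rpl to summed Rps FPKM was 1.33, 1.37, 1.32 and 1.43 in PTH livers, against 1.53, 1.73 and 1.48 in PBS livers. The same order held in the scaled counts, at 1.45 to 1.54 in PTH livers and 1.58 to 1.81 in PBS livers. It also held without genes on shared loci, at 1.13 to 1.25 in PTH livers and 1.34 to 1.57 in PBS livers, and without Rpl41, at 1.31 to 1.43 in PTH livers and 1.48 to 1.72 in PBS livers. The median log2 level of Rpl genes minus that of Rps genes was -0.35, -0.19, -0.19 and -0.17 in PTH livers, against 0.06, 0.08 and -0.13 in PBS livers. The third PBS library therefore lay close to the PTH range on this measure, without overlapping it. No test was run on these ratios, since they are scores over a chosen list.

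Within each group the members, at the deposited scale, moved together from library to library. Among PTH libraries the second was highest for 68 of the 83 members and the fourth lowest for 73. Among PBS libraries the first was highest for 74 and the second lowest for 69. The median FPKM over all tested genes was 6.84, 7.28, 6.42 and 5.73 in PTH libraries, against 4.83, 4.16 and 3.77 in PBS libraries. By this median the same libraries were highest and lowest, except that the third PBS library was the lowest of its group. The order of the members is thus partly that of all genes, and the same counts over all tested genes were not made. In depth, the second PTH library was the deepest and the fourth the shallowest of the PTH group, and the first PBS library was the deepest and the third the shallowest of the PBS group. The part of depth in this order was not tested.

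**Figure D3:**
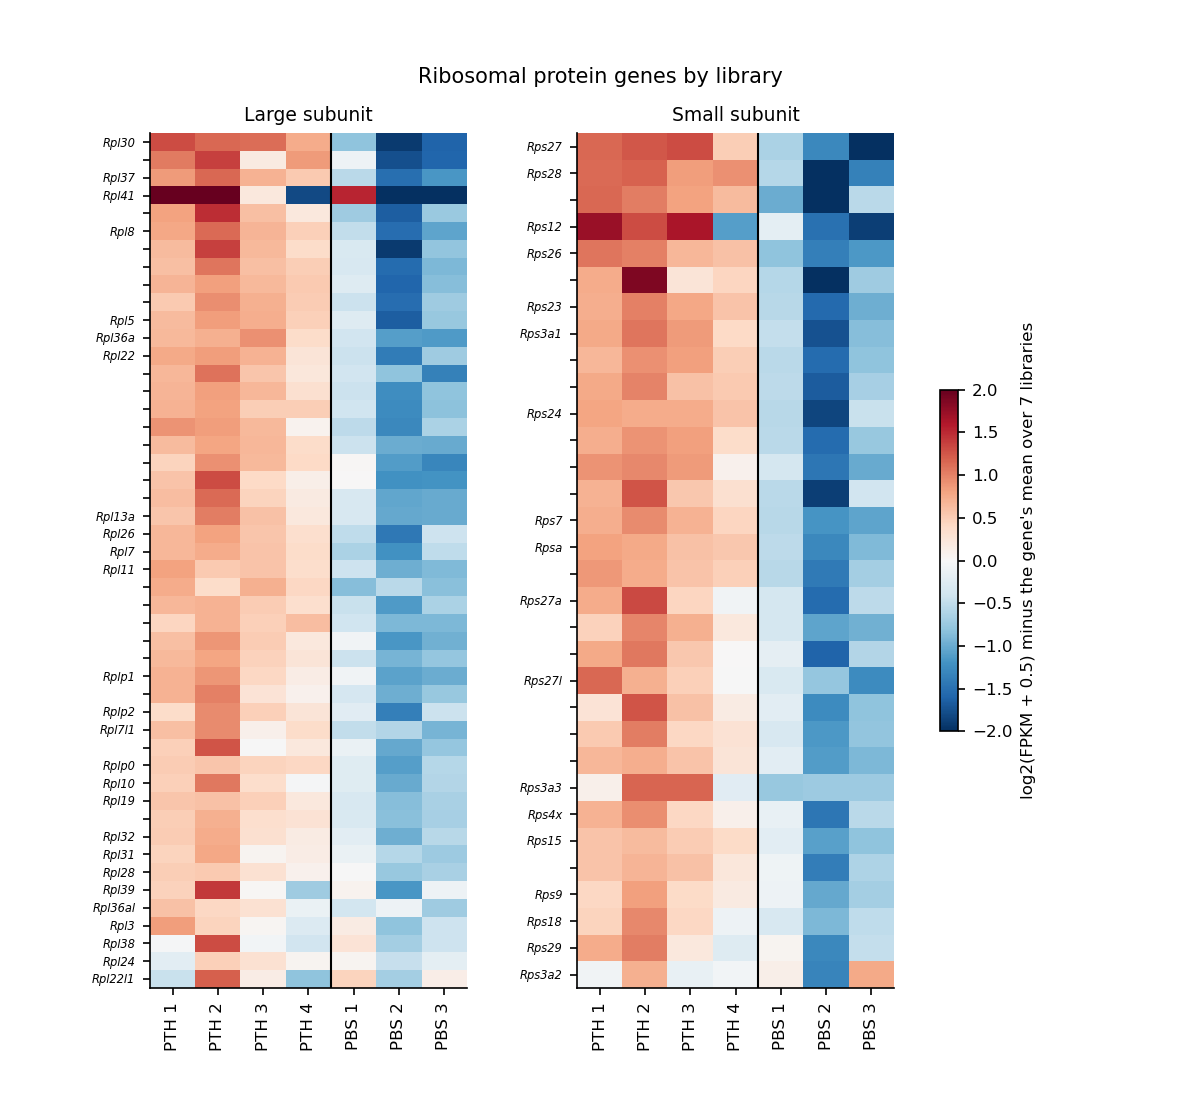
Level of 80 of the 83 tested members in each library as log2(FPKM + 0.5) minus the gene's mean over the 7 libraries, with PTH libraries left of the line, large-subunit genes on the left and small-subunit genes on the right. Colours are limited to the range of the scale, and genes are named where the text describes them. Over all 83 tested members the second PTH library is the highest of its group for 68 and the second PBS library the lowest of its group for 69. By the median FPKM of all tested genes the second PTH library is also the highest of its group (7.28), whereas the third PBS library is the lowest of its own (3.77).

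The 5 small-subunit genes with the smallest p-values were Rps26, Rps28, Rps27, Rps23 and Rps7, and all of them rose. Rps26, a protein of the mRNA exit channel that is mutated in some patients with Diamond-Blackfan anaemia, had 322, 307, 241 and 229 FPKM in PTH livers, against 87.3, 58.9 and 68.7 FPKM in PBS livers. Its lowest PTH library was far above its highest PBS library. The log2 change was 1.94 ± 0.26 (SE, adjusted p = 0.00294) from limma over all tested genes, and after median scaling it was 1.31 (adjusted p = 0.00709). Rps28, which lies beside Rps26 at the exit channel, had 212, 219, 172 and 181 FPKM in PTH livers, against 64.3, 21.1 and 37.5 FPKM in PBS livers. The PTH libraries were close to each other and far above all PBS libraries, among which the first was highest. Its log2 change was 2.38 ± 0.35 (SE, adjusted p = 0.00344). The gene shares its listed locus with another gene, so its level is less certain.

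Rps27, a zinc-binding protein on the outer face of the small subunit, had 146, 156, 162 and 92.3 FPKM in PTH livers, against 42.3, 26.5 and 13.3 FPKM in PBS livers. All PTH libraries were higher, the fourth least so, but these levels rest on few reads, an estimated 29.2 to 74.7 per PTH library and 3.2 to 18.1 per PBS library. The log2 change was 2.44 ± 0.38 (SE, adjusted p = 0.00372). Rps23, which forms part of the decoding centre, had 186, 227, 192 and 168 FPKM in PTH livers, against 76.6, 38.1 and 56.7 FPKM in PBS livers. The groups were widely separated, and the log2 change was 1.80 ± 0.29 (SE, adjusted p = 0.00386). Rps7, which in human cells also binds the p53 regulator MDM2, had 138, 161, 135 and 112 FPKM in PTH livers, against 56.5, 36.6 and 39.7 FPKM in PBS livers. Again the lowest PTH library lay well above the highest PBS library, with a log2 change of 1.63 ± 0.26 (SE, adjusted p = 0.00400). All 5 of these genes also passed the threshold after median scaling, at log2 changes of 1.31 for Rps26, 1.76 for Rps28, 1.82 for Rps27, 1.17 for Rps23 and 1.01 for Rps7, and kept an adjusted p under 0.05 when any 1 library was left out as deposited.

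Among large-subunit genes Rpl30 had the greatest estimated change of all members. Rpl30, whose yeast counterpart binds its own transcript and blocks its splicing, had 166, 149, 146 and 112 FPKM in PTH livers, against 38.3, 17.5 and 21.6 FPKM in PBS livers. Its lowest PTH library was far above its highest PBS library, and the first PTH library was highest. The log2 change was 2.52 ± 0.30 (SE, adjusted p = 0.00188), and 1.90 (adjusted p = 0.00351) after median scaling. Rpl30 lies at chr15:34440505-34443640 on the minus strand (GRCm38), and the table lists it with a locus of 891873 bases shared with other genes, so part of its signal is uncertain. Rpl37, a small zinc-binding protein, had 88.7, 109, 79.4 and 70.6 FPKM in PTH livers, against 33.5, 16.9 and 21.6 FPKM in PBS livers. Its groups were well apart, and the log2 change was 1.87 ± 0.29 (SE, adjusted p = 0.00373).

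Rpl8, which reaches towards the peptidyl transferase centre, had 269, 346, 252 and 219.5 FPKM in PTH livers, against 111, 54.1 and 75.1 FPKM in PBS livers. Its PTH libraries were all well above the highest PBS library, with a log2 change of 1.80 ± 0.30 (SE, adjusted p = 0.00472). Rpl36a, which contacts the tRNA in the exit site, had 134, 139.6, 162 and 110.0 FPKM in PTH livers, against 65.2, 39.4 and 38.6 FPKM in PBS livers. The groups did not overlap, and the log2 change was 1.54 ± 0.28 (SE, adjusted p = 0.00625). After median scaling the log2 changes were 1.26 for Rpl37, 1.17 for Rpl8 and 0.91 for Rpl36a, all past the threshold, and Rpl30, Rpl37, Rpl8 and Rpl36a each kept an adjusted p under 0.05 without any 1 library as deposited.

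Windows around the transcription start are shown for 4 of the genes that rose and for Rpl22l1, which did not pass the test, as examples of genes that moved together and of one that did not. They run from 90 bases before the start to 30 from it on, 5′ to 3′ on the gene's strand (RefSeq, GRCm38.p6). Capitals mark matches, on either strand, to CCGGAAG (the core bound by ETS-family factors), AAGATGGC (the YY1 motif) or TATAAA (the TATA box), and the longest run of at least 8 pyrimidines near the start. In order the windows are chr10:128626477-128626596 (minus strand), chr3:90213619-90213738 (minus), chr12:28635924-28636043 (minus), chr15:5116523-5116642 (plus) and chr3:28805418-28805537 (plus).
Rps26: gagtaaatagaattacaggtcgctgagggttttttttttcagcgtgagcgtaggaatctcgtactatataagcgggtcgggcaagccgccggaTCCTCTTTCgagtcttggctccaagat
Rps27: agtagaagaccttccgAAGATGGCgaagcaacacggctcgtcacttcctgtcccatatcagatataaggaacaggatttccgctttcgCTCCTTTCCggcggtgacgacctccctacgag
Rps7: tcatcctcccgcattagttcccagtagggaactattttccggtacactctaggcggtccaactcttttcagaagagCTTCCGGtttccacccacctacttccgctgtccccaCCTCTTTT
Rpl37: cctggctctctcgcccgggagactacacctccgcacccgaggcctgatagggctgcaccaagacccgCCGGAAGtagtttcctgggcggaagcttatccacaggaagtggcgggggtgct
Rpl22l1: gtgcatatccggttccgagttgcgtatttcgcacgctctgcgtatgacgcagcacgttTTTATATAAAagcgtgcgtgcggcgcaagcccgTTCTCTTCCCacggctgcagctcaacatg

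Rps26, Rps27 and Rps7 had a pyrimidine run of 9, 9 and 8 bases near the start, Rpl37 had none of 8 or more, and Rpl22l1 had one of 10 and TATAAA on both strands. The windows shown all hold marked letters, but not every window did. Those of Rps23 and Rps28, which also rose, and of Rpl24, which did not pass the test, held no match. That of Rpl36a, which rose, held only TATAAA, at position 4 from the start. In the RefSeq table, which holds promoters from 250 bases before the start to 50 after it, 64 of the 86 members had an entry. CCGGAAG was in 26 of them (40.6%), against 9.93% of 27025 gene promoters. AAGATGGC was in 6 (9.38%, against 3.19%) and TATAAA in 7 (10.9%, against 15.7%). A run of at least 8 pyrimidines between 20 bases before and 30 after the start was in 34 members (53.1%, against 21.5%). The motifs were looked for on both strands, pyrimidine runs on the gene's strand, and CCGGAAG and AAGATGGC can overlap by their shared letters. Among tested members the median log2 change was 1.38 both with and without CCGGAAG, and it was 1.37 with a pyrimidine run and 1.40 without, so members with and without these letters had nearly the same median.

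The members with the highest mean levels rose as well. Rpl13a, which in human monocytes can leave the ribosome and block translation of inflammatory mRNAs, had 397, 549, 405 and 314 FPKM in PTH livers, against 216, 132 and 135 FPKM in PBS livers. Every PTH library was above every PBS library, with a log2 change of 1.38 ± 0.29 (SE, adjusted p = 0.0104). Rpl26, which lies near the tunnel exit, had 347, 386, 322 and 278 FPKM in PTH livers, against 155, 81.2 and 164 FPKM in PBS livers. Its log2 change was 1.37 ± 0.30 (SE, adjusted p = 0.0114), with no overlap between the groups. Rps24, a protein of the body of the small subunit, had 352, 343, 341 and 304 FPKM in PTH livers, against 138, 56.5 and 149.9 FPKM in PBS livers. The PTH libraries were nearly equal, whereas the second PBS library was far below the other PBS libraries, and the log2 change was 1.66 ± 0.34 (SE, adjusted p = 0.00905). Rps15, a protein of the head of the small subunit, had 256, 265, 246 and 225 FPKM in PTH livers, against 148, 80.5 and 98.2 FPKM in PBS livers. Again the PTH libraries were close together and above all PBS libraries, with a log2 change of 1.23 ± 0.27 (SE, adjusted p = 0.0119). None of these 4 genes passed the threshold after median scaling, where the adjusted p was 0.0612 for Rpl13a, 0.114 for Rpl26, 0.0842 for Rps24 and 0.106 for Rps15. Rpl13a and Rps15 share their listed loci with other genes.

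The 3 genes of the P stalk, which recruits translation factors to the large subunit, rose, with log2 changes below the family median. Rplp0, the base of the stalk, had 273, 281, 259.7 and 254 FPKM in PTH livers, against 161, 88.4 and 129 FPKM in PBS livers. Its PTH libraries spanned a narrow range above the PBS libraries, and the log2 change was 1.12 ± 0.27 (SE, adjusted p = 0.0159). Rplp1 had 403, 458, 332 and 278 FPKM in PTH livers, against 238, 118 and 125 FPKM in PBS livers, with a log2 change of 1.25 ± 0.32 (SE, adjusted p = 0.0192). Rplp2 had 142, 213, 153 and 132 FPKM in PTH livers, against 93.9, 42.4 and 81.6 FPKM in PBS livers, with a log2 change of 1.19 ± 0.32 (SE, adjusted p = 0.0237). In neither did the groups overlap as deposited, but after median scaling the groups overlapped for both Rplp1 and Rplp2, and the adjusted p was 0.195 for Rplp0, 0.134 for Rplp1 and 0.236 for Rplp2. The calls of all 3 were lost without PTH library 2 (adjusted p = 0.0530 for Rplp0, 0.0653 for Rplp1 and 0.0776 for Rplp2) and without PBS library 2 (0.0605, 0.0688 and 0.085). The call of Rplp1 was also lost without PBS library 3 (0.0664) and that of Rplp2 without PTH library 3 (0.0527).

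Rpl5 and Rpl11 bind the 5S rRNA, enter the large subunit as one particle with it and, when free, bind MDM2. Rpl5 had 150.4, 172, 159.5 and 134 FPKM in PTH livers, against 80.5, 30.5 and 56.6 FPKM in PBS livers. Rpl11 had 243, 200.3, 205 and 178 FPKM in PTH livers, against 104, 70.1 and 74.9 FPKM in PBS livers. In both, each PTH library was above each PBS library, and the second PBS library was lowest. The log2 change of Rpl5 was 1.56 ± 0.32 (SE, adjusted p = 0.00960). For Rpl11 it was 1.32 ± 0.26 (SE, adjusted p = 0.00785). After median scaling the adjusted p was 0.0746 for Rpl5 and 0.0585 for Rpl11, and Rpl5 shares its listed locus with another gene. Rps27a, which is made as a fusion with ubiquitin, had 119.8, 178, 96.3 and 67.8 FPKM in PTH livers, against 55.4, 24.2 and 49.4 FPKM in PBS livers. Its groups did not overlap but were uneven, with the second PTH library highest, and the log2 change was 1.41 ± 0.38 (SE, adjusted p = 0.0232). That call was lost after median scaling (adjusted p = 0.169), without PTH library 2 (0.0736) and without PBS library 2 (0.0834).

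Several ribosomal proteins have paralogs, and the members of a pair could be set against each other within a library. Rpl22, an RNA-binding protein of the large subunit that in mouse represses its paralog Rpl22l1, had 192, 202, 184 and 136 FPKM in PTH livers, against 84.4, 42.7 and 69.3 FPKM in PBS livers. Its log2 change was 1.48 ± 0.30 (SE, adjusted p = 0.00851). Rpl22l1 had 9.75, 31.4, 15 and 7.45 FPKM in PTH livers, against 18.4, 8.13 and 14.7 FPKM in PBS livers. The Rpl22l1 groups overlapped fully, and PTH libraries were both the highest and the lowest of all 7, and its log2 change was 0.07 ± 0.45 (SE, adjusted p = 0.922), or -0.54 (adjusted p = 0.452) after median scaling. Rpl22l1 rests on an estimated 8 to 53 reads per PTH library and 9 to 26 per PBS library. The ratio of Rpl22 to Rpl22l1 FPKM was 19.7, 6.44, 12.3 and 18.3 in PTH livers, against 4.59, 5.25 and 4.72 in PBS livers. All PTH ratios were above all PBS ratios, and the two-sided exact permutation p was 0.0571, the smallest that 4 against 3 libraries allow.

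Rpl36al, an autosomal copy of the X-linked Rpl36a, had 162, 143, 133 and 97.2 FPKM in PTH livers, against 83, 99.6 and 65.1 FPKM in PBS livers. Its lowest PTH library lay below its highest PBS library, and its log2 change was 0.69 ± 0.28 (SE, adjusted p = 0.0847). The ratio of Rpl36a to Rpl36al FPKM was 0.829, 0.974, 1.22 and 1.13 in PTH livers, against 0.785, 0.396 and 0.593 in PBS livers, with an exact permutation p of 0.0571. Rps27l, a paralog of Rps27 that p53 induces in human cells, had 158, 117, 99.1 and 70.7 FPKM in PTH livers, against 57.2, 41.5 and 29.4 FPKM in PBS livers. Its groups did not overlap, and the log2 change was 1.36 ± 0.33 (SE, adjusted p = 0.0161). The ratio of Rps27 to Rps27l FPKM was 0.921, 1.34, 1.64 and 1.31 in PTH livers, against 0.740, 0.639 and 0.454 in PBS livers, again with an exact permutation p of 0.0571. Rps27l was thus the more abundant of the pair per length in every PBS library, and Rps27 was in 3 of the 4 PTH libraries, subject to the few reads of Rps27. The call of Rps27l was lost without PTH library 2 (adjusted p = 0.0551) and without PBS library 3 (0.0626).

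Rpl7, an rRNA-binding protein of the large subunit, had 222, 235, 209 and 181 FPKM in PTH livers, against 90.6, 60.1 and 98.2 FPKM in PBS livers. Its log2 change was 1.37 ± 0.27 (SE, adjusted p = 0.00755). Rpl7l1, its nucleolar paralog, had 20.5, 26.1, 14.3 and 17.4 FPKM in PTH livers, against 9.34, 8.7 and 6.75 FPKM in PBS livers. Both pairs of groups were separate, and the log2 change of Rpl7l1 was 1.17 ± 0.28 (SE, adjusted p = 0.0155), on a locus shared with another gene. The ratio of Rpl7 to Rpl7l1 was 8.99 to 14.7 in PTH livers and 6.91 to 14.6 in PBS livers (exact permutation p = 0.629). The call of Rpl7l1 was lost without PTH library 2 (adjusted p = 0.0525) and without PBS library 3 (0.0559). With the 3 ratios above, 4 such pairs were compared, and no adjustment could bring any of them under 0.05. After median scaling the adjusted p was 0.0598 for Rpl22, 0.104 for Rps27l, 0.0760 for Rpl7 and 0.148 for Rpl7l1, so that these calls were lost on that scale.

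**Figure D4:**
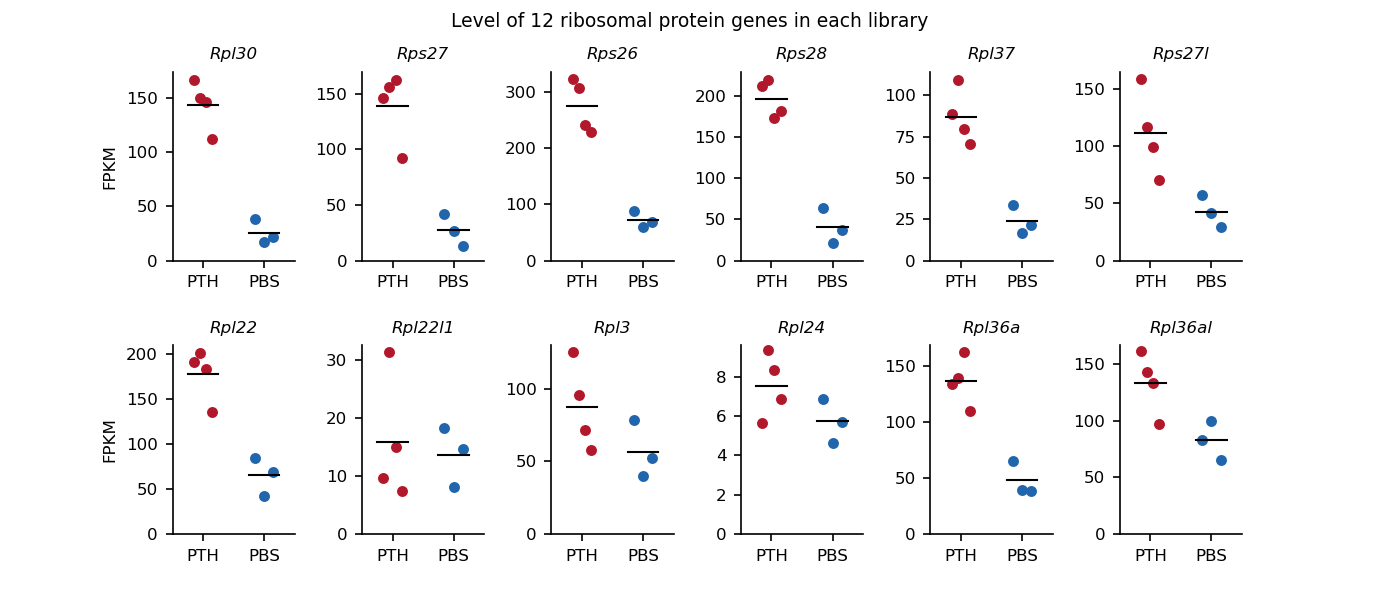
FPKM of 12 members in each library, PTH left of PBS, with 1 point per library and a line at the group mean; each panel has its own axis from 0. Rpl30, Rps27, Rps26, Rps28, Rpl37, Rps27l, Rpl22 and Rpl36a do not overlap between the groups, whereas Rpl22l1, Rpl3, Rpl24 and Rpl36al do.

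Rpl10, a late-joining protein next to the peptidyl site, had 264, 395, 242 and 187 FPKM in PTH livers, against 161, 94.6 and 126 FPKM in PBS livers. Its groups did not overlap as deposited, with a log2 change of 1.07 ± 0.31 (SE, adjusted p = 0.0305), but they did after median scaling, where the adjusted p was 0.279. The call of Rpl10 was lost without PTH library 2 (0.0916), PTH library 3 (0.0599), PBS library 2 (0.106) or PBS library 3 (0.0733), by adjusted p. Its testis paralog Rpl10l was listed at 0. Rps4x, the X-linked gene of a small-subunit protein, had 153, 181, 125 and 101 FPKM in PTH livers, against 85.2, 34.1 and 64.9 FPKM in PBS livers. The groups did not overlap as deposited but did after median scaling, and the log2 change was 1.24 ± 0.34 (SE, adjusted p = 0.0253), with an adjusted p of 0.212 after scaling. That call was lost without PTH library 2 (adjusted p = 0.0806), PBS library 2 (0.0898) or PBS library 3 (0.0540). Rpl39, which lines the exit tunnel, had 66.6, 129, 49 and 29.2 FPKM in PTH livers, against 50.8, 21.1 and 44.8 FPKM in PBS livers. The groups overlapped, and the log2 change was 0.70 ± 0.47 (SE, adjusted p = 0.276). Its paralog Rpl39l was listed at 0.

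In 9 members the test was not passed: Rpl3, Rpl22l1, Rpl24, Rpl36al, Rpl38, Rpl39, Rpl41, Rps3a2 and Rps29. Rpl3, which reaches into the peptidyl transferase centre, had 126, 95.6, 71.9 and 57.7 FPKM in PTH livers, against 78.5, 39.6 and 52.3 FPKM in PBS livers, and its muscle paralog Rpl3l was listed at 0. The highest PBS library was above some PTH libraries, and the log2 change was 0.62 ± 0.33 (SE, adjusted p = 0.183), or -0.01 (adjusted p = 0.991) after median scaling. Rpl24, which bridges the subunits, had 5.63, 9.37, 8.33 and 6.87 FPKM in PTH livers, against 6.89, 4.66 and 5.69 FPKM in PBS livers. Its PTH libraries lay on both sides of the first PBS library, with a log2 change of 0.36 ± 0.29 (SE, adjusted p = 0.363), or -0.22 (adjusted p = 0.619) after scaling, and its locus is shared with another gene. The level per length of the Rpl24 entry was low for a ribosomal protein gene, below 10 FPKM in every library. The annotated transcript of its gene identifier is long, however, at 4920 bases against a median of 714 over the tested members. That identifier lies at chr16:55973883-56008913 in GENCODE M21, whereas the RefSeq start window of Rpl24 is chr16:55966185-55966304, outside it. The values given for Rpl24 may thus be those of another gene. The estimated reads of the entry were 124, 211, 148 and 96 in PTH libraries, against 126, 65 and 58 in PBS libraries, so the low FPKM does not mean few reads.

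Rps29, a zinc-binding protein of the head of the small subunit, had 258, 312, 178 and 129 FPKM in PTH livers, against 161, 63 and 110.2 FPKM in PBS livers. The first PBS library exceeded the fourth PTH library, and the log2 change was 0.99 ± 0.38 (SE, adjusted p = 0.0760), which came under the threshold in 3 of its 18 alternative fits. Rps3a2, a processed pseudogene of the Rps3a family, had 1.71, 3.29, 1.6 and 1.74 FPKM in PTH livers, against 2.0, 0.425 and 3.44 FPKM in PBS livers. Its groups overlapped fully on an estimated 4 to 12 reads per PTH library and 1 to 6 per PBS library, and the log2 change was 0.26 ± 0.48 (SE, adjusted p = 0.699), or -0.21 (adjusted p = 0.832) after scaling. Rpl38, whose mouse mutant has an altered skeleton, had 85.7, 216, 83.7 and 66.6 FPKM in PTH livers, against 105, 54.1 and 65.5 FPKM in PBS livers. The second PTH library stood apart above the rest, and the log2 change was 0.48 ± 0.40 (SE, adjusted p = 0.382). Rpl41, the shortest ribosomal protein, had 128, 158, 31.8 and 7.42 FPKM in PTH livers, against 79.4, 4.07 and 6.17 FPKM in PBS livers. It spread widely within both groups, with low and high libraries in each, on an estimated 8.7 reads in the lowest PTH library and 5.4 in the third PBS library, and the log2 change was 1.83 ± 1.24 (SE, adjusted p = 0.291). Rpl38 and Rpl41 were singled out after their values were seen.

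Among the members described gene by gene, removing the length and GC dependence ended 13 calls, those of Rpl5, Rpl7, Rpl7l1, Rpl10, Rpl26, Rplp0, Rplp1, Rplp2, Rps4x, Rps15, Rps24, Rps27a and Rps27l, whose adjusted p then ran from 0.0524 for Rpl5 to 0.198 for Rpl10. All 13 stayed positive in that fit, and all of them had also missed the threshold after median scaling. Quantile scaling ended the calls of Rpl7l1, Rpl10, Rplp0, Rplp2, Rps4x and Rps27a.

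A gene can pass the test although its groups overlap, and Rps12, singled out after its values were seen, is an example. Rps12, a protein of the small-subunit head, had 225, 167, 209 and 31 FPKM in PTH livers, against 58.8, 23.5 and 17.8 FPKM in PBS livers. The fourth PTH library was below the first PBS library while the other PTH libraries were far above all PBS libraries, and the log2 change was 2.08 ± 0.64 (SE, adjusted p = 0.0357). That call was lost after median scaling (adjusted p = 0.159), in the scaled counts (0.0818) and without any of PTH libraries 1, 2 and 3 or PBS libraries 2 and 3 (0.0977 to 0.123).

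To see which members departed from their own family, each was taken relative to the median of all tested members in its library, which also removes any scaling of a library. Relative to that median 8 members were higher in every PTH library than in every PBS library, namely Rpl8, Rpl30 and Rpl37 in the large subunit and Rps3a1, Rps23, Rps26, Rps27 and Rps28 in the small subunit, against 0.582% of all tested genes. Rps3a1, which lies near the exit channel and was singled out after its values were seen, had 250.1, 312, 268 and 197 FPKM in PTH livers, against 106, 43.9 and 82.3 FPKM in PBS livers. The relative log2 change was 1.08 for Rpl30, 1.0 for Rps27, 0.94 for Rps28, 0.50 for Rps26, 0.44 for Rpl37, and 0.36 for Rpl8, Rps23 and Rps3a1 each. In the other direction 13 members were relatively lower without overlap: Rpl3, Rpl10, Rpl19, Rpl22l1, Rpl24, Rpl28, Rpl31, Rpl32, Rpl36al and Rpl38, and Rps3a2, Rps9 and Rps18. Of all tested genes, 44.8% were lower without overlap relative to the member median. The members lie around this median by construction, whereas their median log2 change stood 0.83 above that of all tested genes. Both shares of all tested genes thus follow largely from the chosen reference and are no background for the counts of members. The relative change was -0.62 for Rpl28 and -0.60 for Rpl31, both of which had passed the test as deposited with little margin, at adjusted p-values of 0.0487 and 0.0458.

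The change of a member was only weakly related to its transcript length, GC content and level. Over the 81 tested members with a transcript, Pearson's r of the log2 change was -0.13 with length and 0.08 with GC content. Over all 83 it was 0.25 with the mean log2 level and 0.16 with the number of annotated pseudogenes named after the gene. The points share libraries and a short length (median 714 bases, against 2128 over all tested genes), so these are descriptions. In GENCODE M21, 292 pseudogenes were named after 60 of the members, and the reads of a member and its pseudogenes can be confused. In all, 21 members had a listed locus shared with another gene, 15 of them Rpl and 6 Rps. Without such loci 27 of 34 Rpl and 26 of 28 Rps genes were higher, against 1915 of 8317 genes (23.0%).

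Other parts of the protein synthesis machinery were set beside the members and beside all tested genes, of which 22.8% were higher and 2.37% lower. Among other mRNAs known to carry a TOP tract, 12 of 16 were higher and 0 lower, with a median log2 change of 1.42. Pabpc1, the poly(A)-binding protein, had 164, 177, 189 and 175 FPKM in PTH livers, against 72.2, 50.2 and 60.5 FPKM in PBS livers. Nap1l1, a histone chaperone, had 35.8, 36.6, 30.5 and 22.7 FPKM in PTH livers, against 7.95, 4.0 and 9.21 FPKM in PBS livers. In both, all PTH libraries were above all PBS libraries, with log2 changes of 2.13 ± 0.32 (SE, adjusted p = 0.00371) for Nap1l1 and 1.54 ± 0.24 (SE, adjusted p = 0.00386) for Pabpc1. Of the elongation factors 7 of 8 were higher and 0 lower (median 1.19). Eef1e1, a small protein of the tRNA synthetase complex that carries an elongation factor name, had 11.5, 25.2, 17.3 and 13 FPKM in PTH livers, against 2.42, 2.4 and 3.69 FPKM in PBS livers. Eef1g, a subunit of the factor that reloads elongation factor 1A, had 87.7, 101, 81.6 and 76.7 FPKM in PTH livers, against 39.9, 29.1 and 33.2 FPKM in PBS livers. Their groups were also separate, with log2 changes of 2.33 ± 0.32 (SE, adjusted p = 0.00309) for Eef1e1 and 1.34 ± 0.25 (SE, adjusted p = 0.00644) for Eef1g.

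Of 62 ribosome assembly factors 37 were higher (59.7%, against 22.8% of all tested genes) and 0 lower, with a median of 1.17. Wdr12, a factor of large-subunit maturation, had 9.22, 10.6, 12.7 and 8.54 FPKM in PTH livers, against 1.79, 1.52 and 2.64 FPKM in PBS livers. Ebna1bp2, a nucleolar factor of the same pathway, had 26.2, 38.1, 24.1 and 26.5 FPKM in PTH livers, against 7.24, 7.31 and 9.24 FPKM in PBS livers. All PTH libraries were higher for both, with log2 changes of 2.13 ± 0.29 (SE, adjusted p = 0.00309) for Wdr12 and 1.78 ± 0.26 (SE, adjusted p = 0.00344) for Ebna1bp2, each on a shared locus. Of 14 genes of rRNA transcription 5 were higher (35.7%) and 0 lower (median 0.87). Rrn3, the initiation factor of RNA polymerase I, had 7.92, 14, 9.43 and 8.74 FPKM in PTH livers, against 3.09, 2.09 and 2.93 FPKM in PBS livers, a log2 change of 1.70 ± 0.30 (SE, adjusted p = 0.00555). Polr1d, a subunit shared by RNA polymerases I and III, had 19.3, 34.9, 27.5 and 21.8 FPKM in PTH livers, against 9.36, 5.59 and 9.51 FPKM in PBS livers, a log2 change of 1.61 ± 0.30 (SE, adjusted p = 0.00701). Neither overlapped between the groups, and after median scaling Rrn3 kept its call (adjusted p = 0.0321) and Polr1d lost it (0.0561).

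Initiation factors, taken as every symbol of Eif with a number, were higher in 35 of 53 (66.0%, against 22.8% of all tested genes). They were lower in 1, with a median of 0.91. This list overlaps the others: it also holds Eif5a of the elongation factors, Eif6 of the assembly factors, Eif4ebp1 of the mTOR list, and Eif4b and several Eif3 genes of the other TOP mRNAs. Of 20 genes of mTOR, its S6 kinases and the eIF4E-binding proteins, 3 were higher (15%) and 0 lower (median 0.58, near the 0.55 of all genes). Eif4ebp1, a translation repressor that mTOR inactivates, had 40.0, 71.6, 46.5 and 53.4 FPKM in PTH livers, against 17.1, 10.2 and 12.3 FPKM in PBS livers, a log2 change of 1.96 ± 0.29 (SE, adjusted p = 0.00344). Akt1s1, an mTOR complex subunit that inhibits the kinase, had 26, 21.8, 30.9 and 27.1 FPKM in PTH livers, against 16.6, 9.94 and 10.8 FPKM in PBS livers, a log2 change of 1.08 ± 0.27 (SE, adjusted p = 0.0180), on a shared locus. Both were higher in all PTH libraries, but after median scaling Eif4ebp1 kept its call (1.35, adjusted p = 0.0158) and Akt1s1 lost it (0.47, adjusted p = 0.253).

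Mitochondrial ribosomal proteins, which build the separate ribosome of the mitochondrion, had smaller median changes than the cytosolic ones. Of 47 Mrpl genes 15 were higher (31.9%) and 0 lower, with a median of 0.70, and of 29 Mrps genes 6 were higher (20.7%) and 0 lower, with a median of 0.55. The Mrps share is close to the 22.8% of all tested genes. Nuclear genes of short respiratory chain subunits, whose transcripts are short as well (median 572 bases), were higher in 15 of 42 (35.7%) and lower in 0, with a median of 0.74. Ndufb9, a complex I subunit, had 143, 131, 117 and 103 FPKM in PTH livers, against 49, 26.1 and 28.7 FPKM in PBS livers, a log2 change of 1.87 ± 0.28 (SE, adjusted p = 0.00372). Cox7a2, a complex IV subunit, had 77.6, 79.7, 82 and 56.2 FPKM in PTH livers, against 32.7, 26.1 and 24.4 FPKM in PBS livers, a log2 change of 1.39 ± 0.25 (SE, adjusted p = 0.00644). Both were separate between the groups.

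After median scaling the numbers higher were 4 of 16 for other TOP mRNAs, 2 of 8 for elongation factors, 8 of 62 for assembly factors, 1 of 14 for rRNA transcription, 4 of 53 for initiation factors, 1 of 20 for mTOR genes, 4 of 47 for Mrpl, 0 of 29 for Mrps and 2 of 42 for short respiratory chain subunits. Of these lists initiation factors, mTOR genes and Mrpl had 1 gene lower each on that scale. Of all tested genes 2.96% were higher and 4.75% lower after median scaling. The median changes on that scale were 0.79 for other TOP mRNAs, 0.57 for elongation factors, 0.59 for assembly factors and -0.04 for Mrps. The difference between these lists and the members was not tested.

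**Figure D5:**
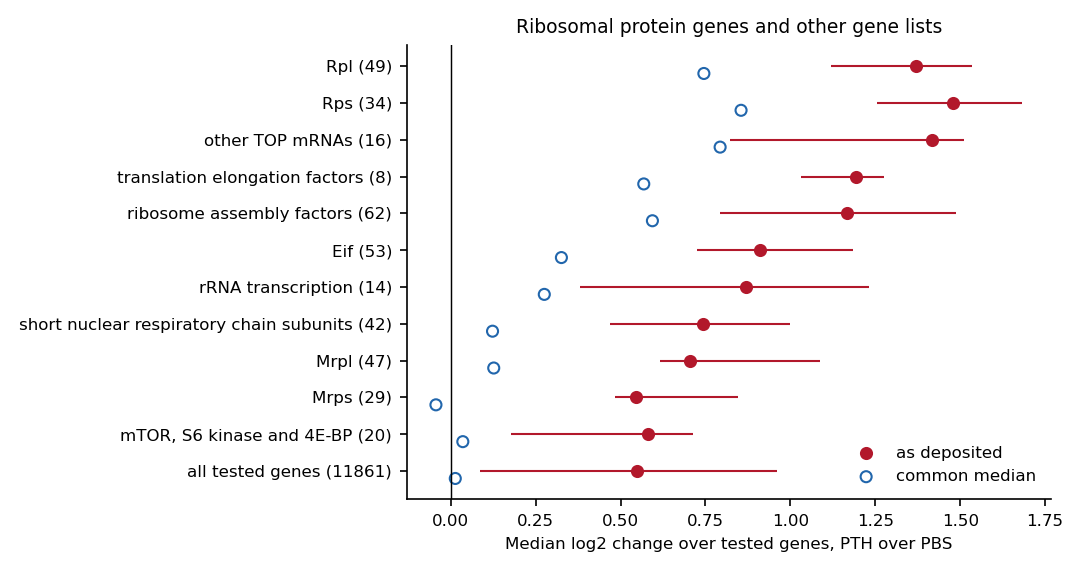
Median log2 change, PTH over PBS, of the tested genes of each list (number in brackets), as deposited (filled, with the interquartile range of the genes) and with libraries scaled to a common median (open). Rpl (1.37), Rps (1.48) and other TOP mRNAs (1.42) lie farthest to the right, and Mrps (0.55) and mTOR genes (0.58) lie near all tested genes (0.55); Mrps turns to -0.04 after scaling.

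The tissue label was checked against marker genes of liver cell types, beside the 22.8% of all tested genes that were higher and 2.37% lower as deposited. Summed FPKM of 8 hepatocyte markers was 18155 to 31474 in PTH livers, against 14025 to 30992 in PBS livers, with 2 of 8 lower and 0 higher. Summed neutrophil markers were 1.88 to 31.1 in PTH livers, against 37.9 to 792 in PBS livers, with 4 of 5 tested lower and Ly6g at 0 in all libraries. Of 7 Kupffer cell and macrophage markers 3 were lower and 1 higher, with sums of 114 to 181 in PTH livers, against 164 to 240.3 in PBS livers. Sums in PTH and PBS livers were 72.0 to 118 and 61.8 to 85.3 for stellate cells, 68.8 to 105 and 61.1 to 74.3 for endothelial cells, 36.1 to 75.4 and 58.7 to 89.0 for cholangiocytes, 104 to 269 and 61.0 to 116 for erythroid cells, and 0.656 to 1.41 and 0.212 to 1.22 for lymphocytes. Of the tested markers 1 of 8 stellate, 1 of 8 endothelial, 1 of 5 cholangiocyte and 2 of 6 erythroid genes were higher and 0 were lower, and no lymphocyte marker was tested. After median scaling 0 of the markers in these 4 lists were higher and 1 cholangiocyte gene was lower, 0 Kupffer cell and macrophage markers were higher and 4 lower, and the hepatocyte and neutrophil counts stayed at 2 and 4 lower. On that scale 2.96% of all tested genes were higher and 4.75% lower. The part of the marker shifts in the ribosomal protein result was not tested.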

How the data were processed

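The 7 liver libraries were grouped by the treatment label, 4 PTH and 3 PBS. Per the file headers, the table deposited by the authors holds 1 FPKM column and 1 count column per library. Per the submitters' processing notes, Bowtie 0.12.2 and the build mm8 were used; the program behind the FPKM values was not given in the sources used here, and the gene positions match GENCODE M21 (GRCm38), which was used for positions. The deposited count columns are a scaled signal: per library, 92.4 to 94.2% of values fall within 0.05 of a whole multiple of that library's own step, so no count test was run, and totals divided by the step gave the estimated reads.

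The test covered the 11861 genes that reached 0.5 FPKM in 3 or more libraries. A linear model of log2(FPKM + 0.5) on treatment was fitted by limma 3.58.1 (R 4.3.3), its variances moderated with the trend and robust options of eBayes, and called at a two-sided Benjamini-Hochberg threshold of 0.05. The values were not rescaled in this fit, and a change on this scale understates that of low genes. Paralog ratios were compared by exact permutation in SciPy 1.17.1. For the common median, each library was scaled to the same median over the tested genes. The design had foreseen a count test if the table held raw counts.

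The members, the gene lists and the alternatives were chosen with earlier results of these data known. Members described with library values were, by rule, the 5 smallest p, the 3 highest mean levels and the 2 changes nearest 0 in each subunit, the P stalk, Rpl5 and Rpl11, Rps27a and paralogs with their parents; other lists are given by counts and the 2 smallest p. Members singled out beyond this rule are named as such. Some members that were tested and counted are not reported here by name. Of the list genes, Adgre1, Trac and Ahsp among the markers, and Gas5, Snhg1, Snhg8 and Utp4, had no line under these symbols and are not in the counts. Rack1 had no line under that symbol either, but it is counted among the other TOP mRNAs under its older symbol Gnb2l1. Intervals between libraries cover the spread of these samples only.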

Additional observations from a re-analysis of the deposited data

Results flagged for a closer look

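In 38 measures of the 4 PTH libraries (the named members with a level above 0 and summary measures of the family), the most extreme library was set against the rest by Dixon's ratio, which chance alone passes in about 1 of 20 groups. Rps3a2, the processed pseudogene, had 3.29 FPKM in the second PTH library, which stood apart from the other PTH libraries (the gap to its neighbour was 0.914 of the range), on an estimated 12 reads. The median log2 level of Rpl genes minus that of Rps genes was -0.35 in the first PTH library, apart from the other PTH libraries (0.881 of the range).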

How the results depend on the processing

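With libraries scaled to a common median, the counts were 10 Rpl, 12 Rps and 351 of all genes higher and 563 lower, and the medians were 0.7453 (Rpl) and 0.8548 (Rps). On that scale Rpl22l1 (-0.5397), Rpl24 (-0.2248), Rps3a2 (-0.2136), Rpl38 (-0.1415) and Rpl3 (-0.0067) turned negative. With quantile scaling 30 of 49 Rpl and 18 of 34 Rps genes were higher, and 467 of all genes were higher and 510 lower. The medians were then 0.971 and 1.0717, and of the members described by rule Rpl22l1 (-0.4955), Rpl24 (-0.2395) and Rps3a2 (-0.1496) were negative. With the length and GC dependence removed, 22 Rpl and 14 Rps genes were higher, and 524 of all genes were higher and 561 lower. The medians were then 0.8011 and 1.0137, their difference was -0.2126, and of the members described by rule Rpl22l1 (-0.5816) and Rpl24 (-0.1853) were negative. Without shared loci, fewer genes were tested, 27 Rpl genes were higher and the difference of the medians was -0.2543. Without the filter 1432 of all genes were higher and 164 lower. No label says that the replicate numbers pair the libraries. For equal numbers the correlations of deviations were -0.0306, -0.156 and 0.0103, and the first PTH library was closer to the second PBS library (0.215). With so few libraries these values cannot exclude a link by number. With the replicate block 1558 of all genes were higher and 177 lower, and the Rpl and Rps counts stayed within 1.5 times. When 1 library was left out, as deposited and (chosen after seeing the data) at a common median, the ranges were 55 to 2710 genes higher and 119 to 954 lower, 1 to 42 Rpl and 3 to 33 Rps genes higher, 0.5733 to 1.5695 for the Rpl median, 0.6489 to 1.696 for the Rps median and -0.3011 to -0.0756 for their difference. Over the same fits Rpl22l1 ranged over -0.8787 to 0.3443, Rps3a2 over -0.8434 to 0.7205, Rpl24 over -0.3467 to 0.4873, Rpl3 over -0.2245 to 0.8765, Rpl36al over -0.0158 to 0.8347 and Rpl39 over -0.2999 to 1.0346. No member fell past the threshold in any of these fits. Pseudocounts of 0.1 and 1, a minimum of 1 FPKM, plain moderation and the scaled counts changed none of these counts by over 1.5 times. Apart from the scalings and the length and GC fit, the causes were not tested. Low reads limit Rps27, Rpl41, Rpl22l1, Rps3a2 and Rps3a3.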

Other observations

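Marker genes of liver cell types also differed between the groups, and the 2 with the smallest p are given for each list. Cyp2e1, a drug-metabolizing enzyme of pericentral hepatocytes, had 67, 177, 121 and 146 FPKM in PTH livers, against 361, 324 and 384 FPKM in PBS livers, a log2 change of -1.56 ± 0.33 (SE, adjusted p = 0.0101). Fgb, a fibrinogen chain made by hepatocytes, had 2692, 543, 2530.4 and 820.2 FPKM in PTH livers, against 6892, 4995 and 5494 FPKM in PBS livers, a log2 change of -2.12 ± 0.52 (SE, adjusted p = 0.0171). Both fell, also after median scaling, whereas as deposited 74 of the 83 tested ribosomal protein genes rose. The other hepatocyte markers did not pass the threshold and went both ways. Ttr (0.83), Alb (0.74) and Serpina1a (0.60) had positive log2 changes, and Apoa1 (-0.45), Hnf4a (-0.34) and Cps1 (-0.08) negative ones.

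Clec4f, a lectin of Kupffer cells, had 11.8, 11.2, 7.13 and 9.23 FPKM in PTH livers, against 41.8, 43.5 and 18.8 FPKM in PBS livers, a log2 change of -1.70 ± 0.34 (SE, adjusted p = 0.00821). Cd68, a macrophage protein of lysosomes, had 12.9, 41.2, 25.3 and 34.9 FPKM in PTH livers, against 7.47, 4.75 and 7.9 FPKM in PBS livers, a log2 change of 1.92 ± 0.38 (SE, adjusted p = 0.00844). These 2 macrophage genes thus moved in opposite directions as deposited, but after median scaling the call of Cd68 was lost (1.32, adjusted p = 0.0728) while that of Clec4f held (adjusted p = 0.00338). Mpo, the myeloperoxidase of neutrophil granules, had 0, 0, 0 and 0.136 FPKM in PTH livers, against 24.4, 2.27 and 3.37 FPKM in PBS livers, a log2 change of -3.60 ± 0.63 (SE, adjusted p = 0.00545). S100a9, a subunit of the neutrophil protein calprotectin, had 1.14, 2.77, 12.7 and 1.74 FPKM in PTH livers, against 346, 24.5 and 78.9 FPKM in PBS livers, a log2 change of -4.64 ± 0.85 (SE, adjusted p = 0.00684). Both calls held after median scaling (adjusted p = 0.00828 for Mpo and 0.00981 for S100a9). In the PBS group the first library was highest for both, the PBS library in which 74 of 83 ribosomal protein genes were highest as well. That library also had the highest median FPKM over all tested genes (4.83, against 4.16 and 3.77), and a link between the 2 was not tested.

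Lrat, the retinol esterifying enzyme of stellate cells, had 5.63, 10.8, 5.99 and 7.03 FPKM in PTH livers, against 1.82, 1.79 and 2.95 FPKM in PBS livers, a log2 change of 1.53 ± 0.33 (SE, adjusted p = 0.0101). Pdgfrb, the platelet-derived growth factor receptor of the same cells, had 3.47, 5.22, 3.86 and 5.78 FPKM in PTH livers, against 2.07, 1.89 and 2.61 FPKM in PBS livers, a log2 change of 0.90 ± 0.31 (SE, adjusted p = 0.0519) that did not pass the threshold. In both, all PTH libraries were above all PBS libraries. Clec4g, a lectin of liver sinusoidal endothelium, had 26.3, 24.2, 20.1 and 17 FPKM in PTH livers, against 13, 13 and 10.8 FPKM in PBS livers, a log2 change of 0.80 ± 0.26 (SE, adjusted p = 0.0432), on a shared locus. Kdr, the endothelial receptor of vascular growth factor, had 8.25, 9.03, 7.41 and 5.52 FPKM in PTH livers, against 4.54, 4.48 and 2.96 FPKM in PBS livers, a log2 change of 0.84 ± 0.30 (SE, adjusted p = 0.0563), which missed the threshold. After median scaling the calls of Lrat (0.99, adjusted p = 0.0894) and Clec4g (0.19, adjusted p = 0.598) were lost. As deposited, Reln (-0.42) among the stellate markers and Stab2 (-0.51) among the endothelial markers had negative log2 changes, without passing the threshold.

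Krt7, a keratin of bile ducts, had 0.421, 0.563, 1.34 and 1.3 FPKM in PTH livers, against 0, 0.0882 and 0.118 FPKM in PBS livers, a log2 change of 1.24 ± 0.38 (SE, adjusted p = 0.0355). Epcam, a surface protein of bile duct cells, had 0.533, 1.43, 0.359 and 2.93 FPKM in PTH livers, against 0.501, 0.159 and 0 FPKM in PBS livers, a log2 change of 1.17 ± 0.50 (SE, adjusted p = 0.102) that did not pass the threshold. Both were at low levels in all libraries. Of the other tested cholangiocyte markers, Krt19 had a positive log2 change (1.13), also at low levels. Spp1 (-0.64) and Sox9 (-0.34) had negative ones at higher levels, and as deposited none of these 3 passed the threshold. After median scaling Spp1 was lower (-1.26, adjusted p = 0.0459). Hbb-bs, a beta globin gene of red cells, had 99.1, 115, 141 and 57.1 FPKM in PTH livers, against 56.9, 26.6 and 32 FPKM in PBS livers, a log2 change of 1.41 ± 0.36 (SE, adjusted p = 0.0195). Slc4a1, the anion exchanger of red cells, had 2.04, 1.0, 0.257 and 1.56 FPKM in PTH livers, against 0.161, 0.205 and 0 FPKM in PBS livers, a log2 change of 1.34 ± 0.44 (SE, adjusted p = 0.0458). For these 2 red cell genes the PTH libraries were above the PBS libraries. The calls of Krt7, Hbb-bs and Slc4a1 were lost after median scaling, at adjusted p-values of 0.118 for Krt7, 0.134 for Hbb-bs and 0.137 for Slc4a1.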
